A study of Mus musculus with 12 samples.

Results

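The genes that make, conjugate and carry bile acids were followed in liver RNA and tumor RNA from mice fed with or without tryptophan (Trp). The set holds 10 of the 24062 genes counted in every library, chosen by name: the sterol-modifying enzymes Cyp7a1, Cyp8b1, Cyp27a1, Cyp7b1, Cyp39a1, Hsd3b7, Akr1d1 and Amacr, the conjugating enzyme Baat, and the carrier Fabp6. These genes, and the lists set beside them, were chosen with earlier results of these data known. Polyadenylated RNA was sequenced as 1 library per mouse in 12 mice, 3 in each of 4 groups. MYC-ON livers came from male FVB mice carrying LAP-tTA and TRE-MYC, in which the LAP (liver activator protein) promoter drives a transactivator and MYC has been on since doxycycline was withdrawn at birth. Mice 101, 102 and 103 received the control diet, called complete diet in the labels, and mice 105, 107 and 108 the No-Trp diet. Xenografts were grown from HCC53N, a mouse liver cancer line, and all come from that 1 line. The labels describe its cells as derived from a Myc tumor, without p53 and with mutant NRAS, whereas the study's methods name an Alb-Cre model with floxed p53 and mutant Nras and no MYC, and which origin holds was not settled. The cells were implanted under the skin of NOD SCID mice (written NOD-SKID in the sample labels), 40, 41 and 43 on the control diet and 35, 36 and 37 on the No-Trp diet. The study's methods name female hosts and repeats in males, and do not state the sex of the sequenced hosts. Each diet lasted 21 days. The labels give an age of 45 days to the males compared with wild-type animals and none to the hosts, and whether that age holds for the diet mice is not stated in them.

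Bile acids are made in hepatocytes from cholesterol. The classic route opens with Cyp7a1 and the alternative route with Cyp27a1 and Cyp7b1, after which shared enzymes reshape the sterol rings, shorten the side chain in peroxisomes and join the product to taurine or glycine for export into bile. In the ileum, bile acids are taken up and bound by Fabp6, and they activate the nuclear receptor FXR (Nr1h4), which raises Fabp6 and Fgf15 there and lowers Cyp7a1 in the liver. Fabp6 is best known from ileal enterocytes, and the enzymes are best known from hepatocytes.

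Libraries held 14660963 to 26085349 reads on genes. The livers carried hepatocyte markers at a summed 13395 to 149945 CPM (counts scaled to the size of the library with edgeR's TMM factors), with Alb at 4534 to 87845 CPM. The xenografts carried the same 12 markers at 570 to 2098 CPM, with Alb at 75.0 to 343 CPM and none of the 12 absent, and cholangiocyte markers at 2982 to 10775 CPM against 118 to 194 CPM in the livers. Every tumor thus held less of the hepatocyte markers and more of the cholangiocyte markers than any liver. Control liver 102 stood apart from control livers 101 and 103: its hepatocyte markers summed to 45279 CPM against 15562 and 13395 CPM, and 14 genes known to be higher in male than in female mouse liver summed to 3944 CPM against 282 and 217 CPM. Control liver 101 held 12.1% of its reads on the ribosomal gene Rn45s, against 2.22% in 102 and at most 0.758% elsewhere. Counts of called genes and the members' fitted differences between liver diets are given with and without these livers where the call or the sign moved.

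Of the 10 genes, 5 had a start-site window among the RefSeq sequences used here (GRCm38.p6): Cyp8b1, Cyp27a1, Akr1d1, Hsd3b7 and Fabp6. The windows of Fabp6 and Cyp8b1 are shown because the diet comparison turned on the fall of Fabp6 and on how Cyp8b1 differed from Cyp7a1, and that of Cyp27a1 because it rose. Each is the 150 bases before the annotated start, written in the direction of the gene, with capitals marking any match to the 5 motifs searched on both strands.
Fabp6 (chr11:43601563-43601712, minus strand): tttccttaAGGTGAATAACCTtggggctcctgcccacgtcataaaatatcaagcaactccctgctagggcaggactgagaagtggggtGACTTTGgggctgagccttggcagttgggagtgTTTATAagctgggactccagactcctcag
Cyp8b1 (chr9:121916306-121916455, minus strand): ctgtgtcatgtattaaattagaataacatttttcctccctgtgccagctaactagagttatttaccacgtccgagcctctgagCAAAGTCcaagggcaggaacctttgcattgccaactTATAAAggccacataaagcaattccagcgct
Cyp27a1 (chr1:74713385-74713534, plus strand): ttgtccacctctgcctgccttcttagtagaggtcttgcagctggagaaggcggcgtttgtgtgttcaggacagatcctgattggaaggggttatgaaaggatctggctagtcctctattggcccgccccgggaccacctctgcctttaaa

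The motifs were chosen after these sequences had been seen, and a match is a description of letters, not a bound site. Fabp6 held AGGTGAATAACCT at positions -142 to -130, an inverted repeat of the form AGGTNANTNACCT that FXR is known to bind. Of 32851 RefSeq windows of 250 bases before a start, 6 (0.0183%) held that form. CAAAGTC, a form known from HNF4 sites, lay at -62 to -56 of Fabp6 on the opposite strand and at -67 to -61 of Cyp8b1, against 3.84% of all windows. TATAAA lay at -31 to -26 of Cyp8b1 and, on the opposite strand, at -29 to -24 of Fabp6, against 12.4% of windows. AGGTCA, the core that many nuclear receptors bind, had matches only in Akr1d1 among the 5 windows, at -232 to -227 and -210 to -205, and 14.02% of all windows held it. CACGTG, the E-box, was in 6.02% of windows and in none of the 5. Cyp27a1 and Hsd3b7 held no match within 250 bases. None of these motifs overlapped another in the windows shown.

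The liver comparison asks which bile acid genes differ when MYC-ON mice lack dietary Trp. The study reports lighter livers, with smaller and fewer tumors, in MYC-ON mice on the No-Trp diet. It also reports less MYC transgene RNA in their livers. The liver groups may thus differ in tumor content as well as in diet, and these cannot be told apart here. The part of tumor content in the liver differences was not tested. A gene was called when edgeR's quasi-likelihood test gave an adjusted p (Benjamini-Hochberg, all tested genes) no higher than 0.05 and the log2 difference was 1 or more in size. In No-Trp livers Cyp27a1, Cyp39a1 and Hsd3b7 rose and Fabp6 fell, so 4 of 10 genes were called, while 16.5% of the 14122 genes tested were called (9.28% higher, 7.27% lower). Here and below, the share of all genes is given for scale and is not a test of the set. Cyp7a1 and Baat had larger fitted differences than the called enzymes and missed the threshold, with control liver 102 between the other controls and the No-Trp mice. The median log2 fold change of the 10 genes was 1.20, against -0.00 over all genes tested. Scaling by library totals instead moved the median of all genes to -0.30 and turned the split of all calls from 1311 higher and 1026 lower to 732 and 1532, with 4 members still called. The groups did not overlap for 8 of the 10, with 7 above and 1 below the controls, and 48.7% of all genes tested did not overlap (23.3% higher, 25.4% lower). In bulk liver RNA, fewer cells of a type and less RNA per cell cannot be told apart. All 12 hepatocyte markers had higher fitted values on the No-Trp diet and 6 of them were called, against the 9.28% of all genes called higher. That count was 9 without control 102, 0 without 101, 103 or 105, 1 without 107 and 4 without 108. The part of these markers in the changes of the bile acid genes was not tested.

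**Figure D1:**
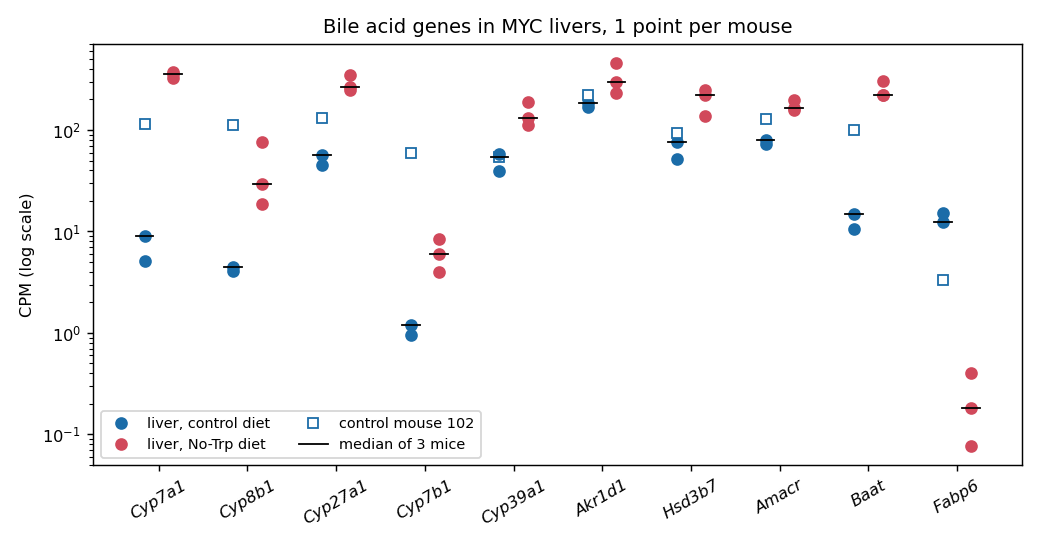
CPM of the 10 bile acid genes (log axis) in the 3 control livers (blue) and the 3 No-Trp livers (red), 1 point per mouse, with the median of each group as a bar and control liver 102 as an open square. Control liver 102 lies far above controls 101 and 103 in Cyp7a1, Cyp8b1, Cyp7b1 and Baat, and Fabp6 is below 0.4 CPM in every No-Trp liver.

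Cyp7a1 (chromosome 4, 6265612 to 6275633, minus strand, GRCm38) encodes the rate-limiting hydroxylase of the classic route. It stood at 5.09, 114 and 8.93 CPM in control livers 101, 102 and 103 and at 377, 328 and 353 CPM in No-Trp livers 105, 107 and 108. Every No-Trp liver was higher than every control, and the controls alone spanned more than an order of magnitude. The fitted difference was 3.08 on the log2 scale (SE 1.13, edgeR adjusted p = 0.0848), which did not pass. Without control liver 102 it was 5.65 with an adjusted p of 6.57e-04, and without control liver 101 it was 2.55 (adjusted p = 0.13).

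Cyp8b1 (chromosome 9, 121914356 to 121916305, minus strand, 1 exon) encodes the hydroxylase that directs the route to cholic acid. Its CPM was 4.42, 113 and 4.04 in controls 101, 102 and 103 and 29.3, 76.7 and 18.8 in No-Trp livers 105, 107 and 108. Control liver 102 was the highest of all 6, and controls 101 and 103 were below every No-Trp liver. The fitted log2 difference was 0.08 (SE 1.27, edgeR adjusted p = 0.967), turned to -0.29 with library totals as the scale, was 3.30 without control liver 102 (adjusted p = 0.0136) and -0.45 without control liver 101 (adjusted p = 0.816). Per unit of transcript length, the level of Cyp8b1 was 1.86, 2.11 and 0.970 times that of Cyp7a1 in controls 101, 102 and 103, and 0.166, 0.500 and 0.114 times in the No-Trp livers. Here control liver 102 lay beside control 101, and the groups did not overlap. No test was run on this ratio.

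Cyp27a1 (chromosome 1, 74713574 to 74737892, plus strand) encodes the mitochondrial hydroxylase that opens the alternative route and also starts side chain oxidation. It was counted at 56.2, 130.1 and 45.1 CPM in the controls and at 268, 350.3 and 249 CPM in the No-Trp livers. The lowest No-Trp liver was above the highest control, again 102. The rise was 1.93 on the log2 scale (SE 0.41, edgeR adjusted p = 0.0236) and 2.52 without control liver 102 (adjusted p = 0.00179). It passed the threshold in 2 of the 6 fits that leave out a liver, and the adjusted p was 0.0608 to 0.0884 without 101, 103, 105 or 107.

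Cyp7b1 (chromosome 3, 18071950 to 18243338, minus strand) encodes the oxysterol hydroxylase of the alternative route, and its RNA is known to be higher in male than in female mouse liver. Controls 101 and 103 held 0.961 and 1.20 CPM (20 and 30 reads) and control 102 held 59.4 CPM (1055 reads). No-Trp livers 105, 107 and 108 held 5.94, 3.98 and 8.40 CPM, between the controls. The fitted log2 difference was -1.71 (SE 1.45, edgeR adjusted p = 0.406) with all mice and 2.49 (adjusted p = 0.0107) without control liver 102, so the sign of this gene turned on that liver. Without control liver 101 it was -2.29 (adjusted p = 0.245). Among the 14 male-biased genes, Hsd3b5 stood at 45.4 CPM in control 102 and at 0.0961 and 0.120 CPM in the other controls, and Mup3 at 1881 CPM against 52.7 and 31.0 CPM. These 2 genes were named after their values had been seen. Whether the male-biased genes bear on Cyp7b1 was not tested.

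Cyp39a1 (chromosome 17, 43667425 to 43751431, plus strand), a hydroxylase of oxysterols, differed least between the control livers among the called enzymes. It stood at 39.4, 54.1 and 58.4 CPM in controls 101, 102 and 103 and at 113, 188 and 132 CPM in No-Trp livers 105, 107 and 108. The groups did not overlap, and control 102 lay between the other controls. The rise was 1.53 on the log2 scale (SE 0.25, edgeR adjusted p = 0.0171), and it ranged from 1.29 to 1.69 when each liver was left out, with an adjusted p of 0.0543 without 101 and 0.0833 without 103.

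The enzymes shared by both routes act on the sterol rings. Hsd3b7 (chromosome 7, 127800604 to 127803802, plus strand), the dehydrogenase that follows the hydroxylases, stood at 75.9, 94.2 and 51.7 CPM in the controls and at 222, 249.7 and 137 CPM in No-Trp livers 105, 107 and 108. All No-Trp livers were above all controls, 108 least so. Hsd3b7 rose by 1.48 on the log2 scale (SE 0.30, edgeR adjusted p = 0.0218), with an adjusted p of 0.0646, 0.0884 and 0.0616 when 101, 103 or 105 was left out. In the annotation used here it overlaps Gm49388 on the same strand and 9430064I24Rik on the opposite strand, neither of which is among the genes counted, and the strand setting of the counting is not given in the sources used here. Akr1d1 (chromosome 6, 37530173 to 37568815, plus strand), the reductase that completes the ring structure, stood at 187, 222 and 169 CPM in the controls and at 295, 457 and 233 CPM in the No-Trp livers. Its groups did not overlap, but control 102 and No-Trp liver 108 were close. The log2 difference of Akr1d1 was 0.79 (SE 0.27, edgeR adjusted p = 0.0704), which met neither threshold. With DESeq2 its adjusted p was 0.0414, and the fold threshold was still not met.

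Side chain shortening and conjugation follow. Amacr (chromosome 15, 10981756 to 10996626, plus strand), the racemase that prepares the side chain for peroxisomal oxidation, was at 79.7, 129 and 73.2 CPM in the controls and 156, 199.5 and 165 CPM in the No-Trp livers. Its adjusted p passed (edgeR adjusted p = 0.0362) with a log2 difference of 0.91 (SE 0.24), under the fold threshold, and 25.3% of all genes tested passed on adjusted p alone. Without control 102 Amacr was called (1.19, adjusted p = 0.00845), and without control 101 its adjusted p was 0.107. Baat (chromosome 4, 49489422 to 49506557, minus strand), which joins bile acids to taurine or glycine, was at 14.8, 101 and 10.7 CPM in the controls and at 221, 304 and 221 CPM in the No-Trp livers. No control reached the No-Trp range, and control 102 was several times the other controls. The log2 difference of Baat was 2.59 (SE 0.85, edgeR adjusted p = 0.0625), 4.29 without control liver 102 (adjusted p = 6.57e-04) and 2.19 without control liver 101 (adjusted p = 0.141). With DESeq2 on all livers Baat was called (log2 2.59, SE 0.71, DESeq2 adjusted p = 0.00214).

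Fabp6 (chromosome 11, 43596049 to 43601540, minus strand), the ileal bile acid carrier whose start window carries the inverted repeat shown above, moved against the called enzymes Cyp27a1, Cyp39a1 and Hsd3b7. It had 320, 59 and 312 reads in controls 101, 102 and 103 (15.4, 3.32 and 12.5 CPM) and 7, 3 and 1 reads in No-Trp livers 105, 107 and 108 (0.400, 0.184 and 0.0771 CPM). Control 102, the liver with the most Cyp7a1 among the controls, had the least Fabp6 among them, and all controls were above all No-Trp livers. The fall was -5.44 on the log2 scale (SE 0.78, edgeR adjusted p = 0.0146). Over the summed reads, scaled to library size, the controls held 46.3 times as much as the No-Trp livers, with a 95% interval of 25.7 to 93.1 that covers counting error only. Fabp6 was called in 5 of 6 fits that leave out a liver, the exception being that without control 103 (adjusted p = 0.0833). Of 12 enterocyte markers, 5 had enough reads to test and 0 of these fell by the same call. Apoa4 (526 to 2765 CPM), Fabp2 (15.3 to 49.9 CPM), Cdh17 (2.03 to 7.60 CPM) and Vil1 (2.39 to 3.31 CPM) were present in every liver, and the first of these is also made by hepatocytes. Slc10a2, the ileal uptake transporter of bile acids, stood at 0.432, 4.22 and 1.12 CPM in controls 101, 102 and 103 and at 0.171, 0.490 and 0.385 CPM in the No-Trp livers, too few reads to test. Fgf15, Sis, Lct, Alpi and Cdx1 had at most 0.240 CPM in any liver, and Cdx2 and Reg3g at most 0.980 CPM. The part of enterocyte RNA in the fall of Fabp6 was not tested.

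**Figure D2:**
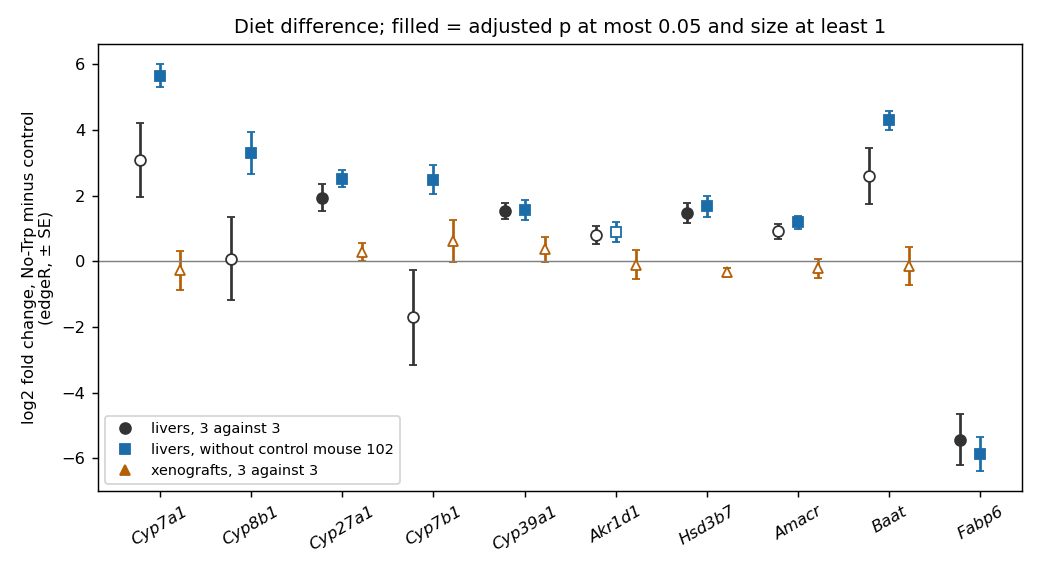
Log2 fold change of the 10 genes between diets (No-Trp minus control, edgeR, bars ± SE) in all 6 livers (circles), in the livers without control 102 (squares) and in the xenografts (triangles), with filled symbols for called genes. Leaving out 1 liver moves Cyp7b1 from -1.71 to 2.49 and Cyp8b1 from 0.08 to 3.30, while Fabp6 stays below -5, and no xenograft symbol is filled.

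How many of the 10 genes were called depended on which control liver was in the fit. Without control 102, 9 were called (8 higher, Fabp6 lower, Akr1d1 not), against 22.3% of all genes (13.6% higher). Without control 103, 0 were called by edgeR, against 0.0562% of all genes (8 genes), with 4363 genes at an unadjusted p under 0.05. Without control 101, 1 was called (Fabp6), against 2.06% of genes. Without No-Trp liver 105, 2 were called (Cyp39a1 and Fabp6), against 2.55% of genes. Without No-Trp liver 107, 3 were called against 8.85% of genes, and without 108, 4 against 14.8%. The deposit marks livers 101 and 108 as resubmitted, and this mark may or may not be a sequencing batch. Among the 4 livers without the mark, 2 on each diet, edgeR called 0 of 10 genes and 0 of 14198, with 4948 genes at an unadjusted p under 0.05, and the log2 differences were 1.83 for Cyp27a1, 1.42 for Cyp39a1, 1.70 for Hsd3b7 and -4.73 for Fabp6, all in the direction of the full comparison. In the pair with the mark, liver 108 held 4.44 times the Cyp27a1 CPM of liver 101, 3.34 times the Cyp39a1, 1.80 times the Hsd3b7 and 69.4 times the Cyp7a1, while Fabp6 was 0.0771 against 15.4 CPM. With the mark as a covariate in the fit of all 6 livers, 4 of the 10 genes were called, against 17.1% of all genes.

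Summed over the 9 enzymes, CPM was 463, 1016 and 423 in controls 101, 102 and 103 and 1688, 2157 and 1517 in No-Trp livers 105, 107 and 108. Control 102 lay between the other controls and the No-Trp group, which did not overlap with the controls. The order of levels per transcript length (RPKM, CPM divided by exon length in kilobases) also differed between diets. In control livers Akr1d1 was highest at 66.6 ± 9.25 RPKM (SD, n = 3), above the range of Amacr (36.0 ± 11.6), and from Amacr down through Cyp27a1, Hsd3b7, Fabp6, Baat, Cyp8b1, Cyp39a1 and Cyp7a1 (10.3 ± 14.9) to Cyp7b1 (9.48 ± 15.6) each gene's range overlapped that of the next. In No-Trp livers Cyp27a1 (133 ± 24.7 RPKM), Baat (128 ± 24.7) and Akr1d1 (113 ± 40.0) led and overlapped each other. Cyp7a1 followed at 84.6 ± 5.88 RPKM, then Hsd3b7 (73.3 ± 21.3), Amacr (66.6 ± 8.80), Cyp39a1 (47.2 ± 12.8) and Cyp8b1 (21.3 ± 15.8), each overlapping its neighbour. Cyp7b1 (2.82 ± 1.02 RPKM) was below the range of Cyp8b1, and Fabp6 (0.460 ± 0.343) below that of Cyp7b1.

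Of 16 other genes of side chain oxidation and conjugation 15 could be tested in the livers, where 7 rose, 0 fell, and the median log2 fold change was 2.08, against 9.28% of all genes called higher. Por, the reductase that supplies electrons to microsomal P450 enzymes, stood at 133, 302 and 167 CPM in the controls and 1394, 2714 and 1395 CPM in the No-Trp livers (log2 3.22, SE 0.45, edgeR adjusted p = 0.0142). Cyp2a12, a hydroxylase known to act on bile acids, rose from 39.0, 273 and 31.2 CPM to 812, 1287 and 585 CPM (adjusted p = 0.0496). Acox2, the peroxisomal oxidase of bile acid side chains, rose from 77.1, 145 and 63.3 CPM to 484, 758 and 647 CPM (log2 2.75, SE 0.36, adjusted p = 0.0136). Groups did not overlap for any of these genes. Without control 102, 13 of 16 tested genes of the list rose, against 13.6% of all genes. The count was 2 without control 101, 0 without 103, 2 without 105, 4 without 107 and 5 without 108.

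Among transporters, 7 of 14 tested were called higher and 0 lower, against 9.28% and 7.27% of all genes. Fitted values were higher for 12 of the 14, and the median log2 fold change was 1.60. Slco1a4, a sinusoidal uptake transporter, rose from 16.6, 59.2 and 16.01 CPM to 477, 641 and 560 CPM (log2 4.22, SE 0.58, edgeR adjusted p = 0.0142). Ephx1, an epoxide hydrolase also linked to bile acid uptake, rose by 3.11 (SE 0.73, adjusted p = 0.0294), and Abcg5, a subunit of the biliary sterol exporter, by 2.95 (SE 0.58, adjusted p = 0.0222). The main exporter of bile acids into bile, Abcb11, stood at 341, 274 and 272 CPM in the controls and 252, 436 and 213 CPM in the No-Trp livers, and the groups overlapped (log2 0.05, adjusted p = 0.919). Slc51b, a subunit of the basolateral exporter, stood at 33.4, 9.69 and 14.8 CPM in the controls and 6.79, 1.29 and 8.09 CPM in the No-Trp livers. Its groups did not overlap, and its log2 difference of -1.83 (SE 0.71) did not pass (adjusted p = 0.0989). Without control 102, 11 of 14 transporters were called higher, against 13.6% of all genes. The count was 1 without control 101, 0 without 103, 2 without 105, 4 without 107 and 5 without 108.

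Of 18 tested regulators of bile acid genes 9 were called higher and 0 lower, against 9.28% and 7.27% of all genes. Fitted values were higher for 15 of the 18, and the median log2 fold change was 1.05. Nr1i3, the xenobiotic receptor CAR, rose from 20.7, 67.7 and 20.3 CPM to 252, 469.9 and 222 CPM (log2 3.15, SE 0.58, edgeR adjusted p = 0.0196). Ppara, the fatty acid receptor of hepatocytes, rose by 2.25 (SE 0.41, adjusted p = 0.0196). Nr1h4, the bile acid receptor FXR, rose from 51.9, 91.6 and 45.1 CPM to 213, 262 and 276 CPM (log2 2.02, SE 0.29, adjusted p = 0.0146), so its RNA was higher where Fabp6 was lower. Nr0b2, the repressor SHP that FXR is known to induce, stood at 10.4, 7.32 and 16.1 CPM in the controls and 7.99, 53.6 and 8.09 CPM in the No-Trp livers, with only liver 107 above the controls (adjusted p = 0.345). The FGF15 receptor Fgfr4 and its partner Klb overlapped between diets (log2 -0.11 and 0.04). The count of called regulators was 9 without control 102, against 13.6% of all genes called higher. It was 1 without 101, 0 without 103, 2 without 105, 4 without 107 and 8 without 108.

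**Figure D3:**
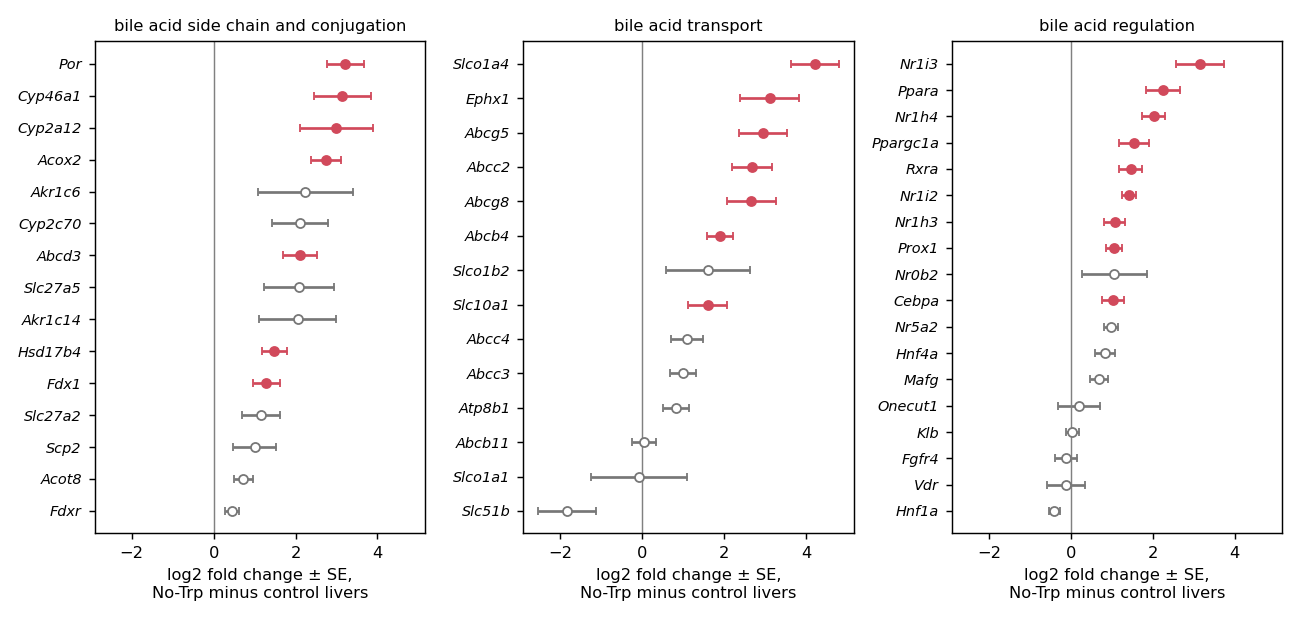
Log2 fold change (No-Trp minus control livers, edgeR, bars ± SE) of the tested genes of 3 lists: side chain and conjugation, transport, and regulation. Red filled points are called genes, 7 of 15, 7 of 14 and 9 of 18, and every one of them lies to the right of 0.

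Marker lists of other cell types and states moved with the diet groups too. Beside the counts below, 9.28% of all genes tested were called higher and 7.27% lower. Without control 102, 13.6% were called higher. Erythroid markers other than the globins, which had almost no reads, all fell (5 of 5 tested), with a summed 56.8 to 604 CPM in the controls and 8.11 to 23.3 CPM in the No-Trp livers, and the log2 differences were -5.53 for Slc4a1 and -5.48 for Rhag. The globin symbols in the list, Hbb-bs, Hbb-bt, Hba-a1 and Hba-a2, had at most 0.154 CPM in any liver. Other globin symbols were not looked up, and why these had so few reads was not tested. Of 12 tested female-biased liver genes 8 rose, with sums of 48.8 to 102 CPM in the controls and 672 to 1629 CPM in the No-Trp livers. The largest of these changes were in Cyp3a44 (log2 7.64), Cyp3a41a (7.49) and Cyp2b9 (6.70), P450 genes with close relatives. How reads shared between such relatives were counted is not given in the sources used here, and Cyp3a41b had 0 reads in every liver. Male-biased genes had 0 of 12 called by edgeR, and 4 of the 12 had higher fitted values. The 4 with an unadjusted p under 0.05 were all lower on the No-Trp diet: Mup3 (log2 -4.98), Mup20 (-3.22), Cyp4a12a (-3.12) and Cyp4a12b (-1.55). Their list summed to 600 to 857 CPM in the No-Trp livers, between control 102 and the other controls. Cyp2d9 alone held 342 to 454 CPM of those sums. Without control 102, 5 of the male-biased genes were called higher and 1 lower. Clock genes, several of which are known to set the daily rhythm of Cyp7a1, had 7 of 15 called higher, among them Dbp (log2 2.63), Per3 (2.21) and Ciart (1.73), with sums of 506 to 616 CPM against 892 to 1504 CPM. The time of day at which mice were killed was not taken up here. Cholangiocyte markers had 0 of 8 called, macrophage markers 0 of 9, fibroblast and stellate markers 3 of 10 higher (Reln, Dcn and Pdgfra) and endothelial markers 2 of 8 higher (Clec4g and Tek). Of the 5 tested enterocyte markers Apoa4 alone rose. These counts moved with the livers in the fit. The erythroid count stayed at 5 without 101, 102 or 108 and was 0 without 103, 105 or 107. The female-biased count was 3 without 101, 1 without 103 and 6 to 9 without any other liver. The clock count was 0 without 101, 103 or 105, 7 without 102, 5 without 107 and 8 without 108. Without control 102, 3 macrophage, 4 fibroblast and stellate and 4 endothelial markers were called, and without 101 or 103 none of these was. The part of these lists in the changes of the bile acid genes was not tested.

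**Figure D4:**
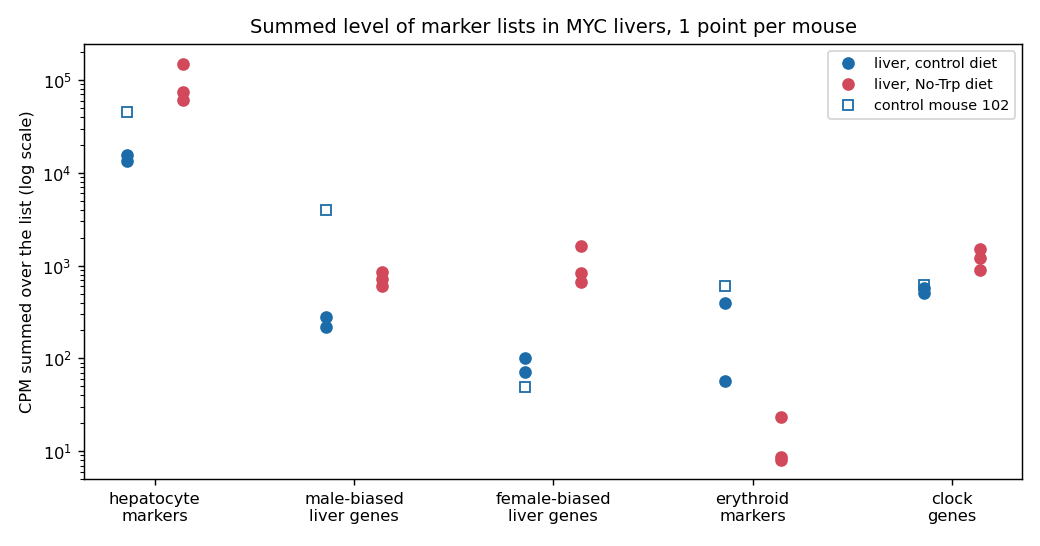
Summed CPM (log axis) of 5 marker lists in each control liver (blue) and each No-Trp liver (red), with control liver 102 as an open square. Control 102 lies at 45279 CPM in hepatocyte markers and 3944 CPM in male-biased genes, and the erythroid and female-biased sums of the diets do not overlap.

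The genes whose pattern over the 12 libraries was most like that of Cyp7a1 were Cml2, Tdo2 and Tat, at root mean square differences of 0.43, 0.44 and 0.49 on the centred log2 CPM scale among 13863 genes. Tdo2, the hepatic dioxygenase that opens Trp breakdown, stood at 28.3, 347 and 34.6 CPM in controls 101, 102 and 103 and at 1982, 2951 and 2139 CPM in the No-Trp livers, so it shared the high value of control 102. Tat, a tyrosine aminotransferase, stood at 36.9, 496 and 56.5 CPM and at 3474, 5078 and 3875 CPM. Akr1d1 was closest to Serpinf2 (0.18), Slc6a13 (0.20) and Masp2 (0.25), all at most 8.19 CPM in every xenograft. Fabp6 was closest to L1td1 (0.70), Tmem169 (0.90) and Crhr2 (0.93). L1td1 had 9.80, 1.69 and 5.37 CPM in the controls and at most 0.0771 CPM in the No-Trp livers. Cyp7b1 had no near neighbour: Sspo, Sned1 and Ablim3 came closest, at 1.07, 1.10 and 1.12.

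The xenograft comparison asks whether the same diet changes these genes in liver cancer cells growing outside the liver. None of the 10 genes was called: edgeR could test 8, of which 0 passed and 1 had an unadjusted p under 0.05, and DESeq2 called 0 as well, while 0.360% of the 14704 genes tested were called (0.245% higher, 0.116% lower). Hsd3b7 was the best expressed of the 10, at 80.8, 79.8 and 74.0 CPM in control tumors 40, 41 and 43 and at 62.6, 57.3 and 68.6 CPM in No-Trp tumors 35, 36 and 37. Its groups did not overlap, as for 22.4% of genes tested, and the difference of -0.34 (SE 0.14) did not pass (edgeR adjusted p = 0.276). Cyp27a1 stood at 10.1, 12.2 and 11.95 CPM in the control tumors and at 19.7, 10.03 and 12.6 CPM in the No-Trp tumors, tumor 35 being the highest. Control tumors 41 and 43 carry the resubmission mark and no No-Trp tumor does, and with the mark as a covariate 0 members were called. Cyp7b1 ranged from 1.32 to 9.39 CPM in control tumors and from 4.74 to 8.79 CPM in No-Trp tumors (log2 0.62, SE 0.64, adjusted p = 0.667).

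The remaining members were low in the tumors. Amacr was at 11.6 to 18.2 CPM on the control diet and 8.33 to 15.9 CPM on the No-Trp diet, Cyp39a1 at 2.80 to 4.06 and 2.79 to 6.15 CPM, and Akr1d1 at 1.88 to 2.79 and 1.27 to 3.15 CPM. Cyp7a1 had 14 to 50 reads and Baat 14 to 46 reads in any tumor, with overlapping groups. Like Alb, Akr1d1 and Baat had their lowest CPM in tumor 41 among the controls and tumor 37 among the No-Trp tumors. Cyp7a1 was lowest in tumors 41 and 36. The source of these few reads was not tested. Too few reads for the test were found for Cyp8b1 (2 to 16 per tumor) and Fabp6 (2, 2 and 1 in the control tumors, 0, 0 and 1 in the No-Trp tumors), and a difference in either was not detectable at this depth. In the lists of side chain, transport and regulatory genes, 0 of 16, 0 of 13 and 0 of 16 tested genes were called in the tumors. The median log2 fold change of the 8 tested members was -0.12, against -0.00 over all genes tested. Scaling by library totals moved the median of all genes to 0.11 and the share of calls that were higher from 67.9% to 84.5%, and turned Akr1d1 from -0.10 to 0.03.

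The diet effects of both models were compared directly with an interaction term, fitted on the 12 libraries together, which uses the same livers as the comparison above. Of 10 members 1 was called, Hsd3b7, against 12.7% of the 15472 genes tested (6.70% higher, 6.01% lower). Scaling by library totals moved the median of all genes from 0.03 to 0.41 and the share of calls that were higher from 52.7% to 80.7%, again with 1 member called. For Hsd3b7 the diet effect in xenografts minus that in livers was -1.79 on the log2 scale (SE 0.34, edgeR adjusted p = 0.0100), with the levels per mouse given above for each model. Cyp27a1 lay at the threshold (-1.62, SE 0.51, adjusted p = 0.0510), and Amacr (-1.10, adjusted p = 0.0710) and Cyp39a1 (-1.13, adjusted p = 0.0735) did not pass. Cyp7a1 (-3.28, SE 1.41), Baat (-2.67, SE 1.14) and Akr1d1 (-0.85, SE 0.44) had adjusted p of 0.134, 0.130 and 0.208. Without control liver 102, 5 were called (Cyp7a1, Cyp27a1, Hsd3b7, Amacr and Baat), against 16.2% of all genes. For Fabp6 the interaction (3.22, SE 2.56, adjusted p = 0.415) rests on tumors with 0 to 2 reads.

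Most members were lower in the xenografts than in the livers. The models also differ in tissue, strain and possibly sex, and these cannot be told apart here. On the control diet 8 of 10 passed as lower, against 20.2% of genes called lower and 43.5% called in either direction. Akr1d1 differed most clearly, at 193 ± 26.8 CPM in livers and 2.28 ± 0.462 CPM in tumors (SD, n = 3; log2 -6.40, SE 0.37, edgeR adjusted p = 7.15e-08). Cyp39a1 was lower by -3.89 (SE 0.31), Cyp27a1 by -2.75 (SE 0.38) and Amacr by -2.67 (SE 0.29). Cyp7a1 (-4.69, SE 1.07), Baat (-5.16, SE 0.87) and Cyp8b1 (-7.63, SE 1.55) were lower with wider errors. The sizes of these differences rest on few tumor reads, whose source was not tested. Fabp6 had 691 reads in the control livers and 5 in the control tumors, a ratio of 135 after scaling to library size (95% interval 57.5 to 416, counting error only).

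The members that did not differ on the control diet were Hsd3b7 and Cyp7b1. Hsd3b7 stood at 73.9 ± 21.3 CPM in control livers and 78.2 ± 3.67 CPM in control tumors (log2 0.08, SE 0.24, edgeR adjusted p = 0.781). The tumors lay within the range of the livers. Cyp7b1 in tumors (1.32 to 9.39 CPM) lay between control liver 102 and the other controls (log2 -2.13, adjusted p = 0.164), and without control liver 102 the sign turned to 2.06 (adjusted p = 0.0284). Per transcript length Hsd3b7 was the highest member in the tumors of both diets, at 28.3 ± 1.33 and 22.7 ± 2.04 RPKM, above the ranges of Amacr (5.66 ± 1.28 and 4.94 ± 1.53) and Cyp27a1 (5.26 ± 0.522 and 6.49 ± 2.31). Every other member had a mean of at most 3.38 RPKM in the tumors.

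On the No-Trp diet 9 of 10 were lower in xenografts than in livers, against 19.1% of genes called lower and 43.7% called in either direction, and the livers are those of the diet comparison. Hsd3b7 was at 203 ± 58.9 CPM in livers and 62.9 ± 5.65 CPM in tumors (log2 -1.71, SE 0.24, edgeR adjusted p = 7.87e-05). Cyp7a1 was at 353 ± 24.5 and 1.42 ± 0.235 CPM (log2 -7.97, SE 1.21, adjusted p = 1.66e-04). Cyp7b1 was the exception, at 6.11 ± 2.21 and 7.31 ± 2.24 CPM (log2 0.25, SE 1.22, adjusted p = 0.874). The call for Fabp6 rests on 11 reads in the livers and 1 in the tumors. With library totals as the scale, 9 were called as well, while the median of all genes moved to 0.68 and the share of calls that were higher from 56.2% to 74.1%.

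**Figure D5:**
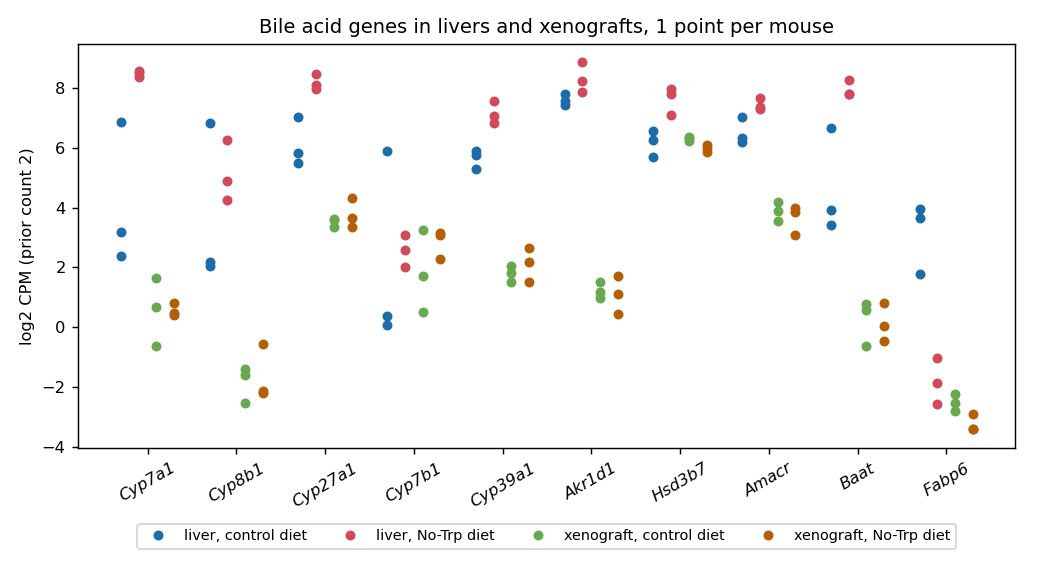
Log2 CPM (prior count 2) of the 10 genes in control livers (blue), No-Trp livers (red), control xenografts (green) and No-Trp xenografts (brown), 1 point per mouse. Hsd3b7 lies at the control liver level in every xenograft, Cyp7b1 lies in every xenograft between control liver 102 and the other control livers, and the other genes are lower in the xenografts than in the livers of the same diet.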

How the data were processed

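RNA-seq of 6 MYC-ON livers and 6 HCC53N xenografts was analysed. Per the labels and the study's methods, the authors trimmed reads with Trim Galore, aligned them to mm10 with STAR 2.7.2b and counted them with HTSeq. The deposited values are raw read counts per gene symbol. Between 24.7% and 39.4% of each library's reads were not assigned to a gene and were left out here. Strand and overlap settings are not given in the sources used here. Each mouse is 1 replicate. Libraries within a group differed by far more than sampling noise.

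Counts were fitted with edgeR 4.0.16 in R 4.3.3 (TMM, filterByExpr, glmQLFit robust, glmQLFTest, two-sided), separately for livers and xenografts, and over all 12 libraries for the interaction and the model comparisons. Adjusted p covers all genes tested, and each SE is the log2 difference in size over the square root of F. CPM uses TMM factors, and RPKM divides by the exon union of GENCODE M21 (GRCm38). A counting interval is exact, at 95%. The fits of 4 comparisons were tested on simulated counts with the same spread for every gene and no outlying mouse. That setting does not cover livers that differ as these controls did.

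The members and lists were chosen with earlier results of these data known. From each list the text names the 3 largest called rises and falls with a mean count of at least 100, and the 3 genes nearest in pattern to Cyp7a1, Cyp7b1, Akr1d1 and Fabp6 by centred log2 CPM (prior count 2, mean CPM of at least 1). Cell type markers are given where a value stands beside a result. Abcb11, Slc51b, Nr0b2, Fgfr4, Klb, Hsd3b5, Mup3, Rn45s and the enterocyte genes at or near 0 were named after their values were seen. So were Mup20, Cyp4a12a, Cyp4a12b and Cyp2d9. Alternatives were DESeq2 1.42.0, RLE factors, library totals, no filter, at least 10 counts in every library, Rn45s left out, resubmission as a covariate, other sample sets, no threshold on the fold change and leaving out each library. The fit of libraries without the resubmission mark was added after the data were seen.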

Additional observations from a re-analysis of the deposited data

Results flagged for a closer look

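Hsd3b7 differed between the models in its response to the diet, by a test of the difference itself. The diet effect in xenografts minus that in livers was -1.79 on the log2 scale (SE 0.34, edgeR adjusted p = 0.0100, interaction term over 12 libraries), with livers at 75.9, 94.2 and 51.7 CPM on the control diet and 222, 249.7 and 137 CPM on the No-Trp diet, and tumors at 74.0 to 80.8 and 57.3 to 68.6 CPM. All 3 No-Trp livers were above the control livers, and all 3 No-Trp tumors were below the control tumors. The liver groups may also differ in tumor content, whose part in this result was not tested.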

How the results depend on the processing

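With 3 mice per group, calls near the threshold moved with the mice. No paired analysis was possible because no groups share animal numbers. When each liver was left out, the genes called between diets ranged from 8 (without control 103) to 3207 (without control 102), members called from 0 to 9, Cyp8b1 from -0.73 to 3.30 and Cyp7b1 from -2.30 to 2.49. Among unmarked livers 0 genes and 0 members were called and Cyp8b1 was -0.13, and with library totals it was -0.29. Without the fold threshold 3570 liver genes passed. With DESeq2 on all livers 3043 genes were called, and Baat was called beside the members that edgeR called.

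In xenografts, 53 genes were called, against 380 with DESeq2, 82 with RLE factors, 118 with no filter, 15 with at least 10 counts in every library, 4 with resubmission as a covariate, 85 without Rn45s, 23 in the fit of all 12 libraries, 0 among unmarked tumors (where control 40 alone is assumed to vary like the others) and 9 to 78 when each tumor was left out. No member was called under any of these. Leaving out each tumor gave -0.71 to 0.44 for Cyp7a1, -0.02 to 0.48 for Cyp27a1, -0.45 to 0.17 for Akr1d1, -0.40 to 0.01 for Amacr and -0.58 to 0.15 for Baat, and library totals gave Akr1d1 0.03.

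For the difference between models, 4 members were called with DESeq2, 3 with resubmission as a covariate, and 2 each with RLE factors, at least 10 counts in every library or no Rn45s, against 1. Leaving out each library gave 1 to 5 members and 916 to 2571 genes, Cyp8b1 from -2.79 to 1.26 and Cyp7b1 from -1.85 to 3.42, and Cyp8b1 was -1.18 with resubmission as a covariate. On the control diet, xenografts against livers ranged from -3.17 to 2.06 for Cyp7b1 and from -0.12 to 0.26 for Hsd3b7, and on the No-Trp diet from -0.01 to 0.54 for Cyp7b1, when each library was left out. The cause of these shifts was not tested. DESeq2 gave no adjusted p for Cyp7a1 and Cyp7b1 in any liver comparison or for Baat in those with xenografts, and these are not counted as lost. Ranking by CPM in place of RPKM put Fabp6 last in control livers and Cyp7a1 at the top in No-Trp livers.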
